A study of Homo sapiens with 2 samples.

Results

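The genes described here are 7 paralogs of the RAS to ERK cascade, measured by RNA-seq in H1299 cells, a human line derived from a lymph node metastasis of a non-small cell lung cancer. They were chosen by symbol, as NRAS and HRAS, ARAF and BRAF, MAP2K1 and MAP2K2, and MAPK3. All 7 were found among the 38637 genes listed. These are not all the paralogs of the 4 families, and the others are not analysed here. The study compared a PHF12 knockdown library, whose title carries the prefix si, with a control library labelled as having no treatment, whose title ends in nc. Both libraries came from H1299 cells labelled wild type, with 1 library per group. The sources used here do not give the sequence of the oligonucleotide against PHF12 or whether the control cells received one. PHF12 encodes a PHD finger protein found in SIN3 corepressor complexes with histone deacetylases. The series' title places it upstream of HDAC1 and the EGFR and AKT pathway.

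RAS proteins are small GTPases at the inner face of the plasma membrane that are active when bound to GTP, a state that growth factor receptors such as EGFR promote through exchange factors. Active RAS binds RAF kinases, RAF phosphorylates the MEK kinases encoded by MAP2K1 and MAP2K2, and MEK phosphorylates the ERK kinases, of which MAPK3 encodes one. The cascade is often mutated in lung cancer, and H1299 is known to carry an activating mutation of NRAS. Transcript levels say nothing about the nucleotide bound to RAS or the phosphorylation of the kinases.

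The PHF12 knockdown library held 26084594 counts and the control library 24740581 counts. PHF12 itself had 756 counts in the knockdown library, against 947 in the control library, a fold of 0.753 (0.683 to 0.829). The intervals given after folds and log2 ratios are 95% counting intervals for the knockdown over the control library, and cover counting error only. With 1 library per group no test could be made, so every difference describes these 2 libraries and not the conditions. HDAC1 stood at 1.39-fold, AKT1 at 1.15-fold and EGFR at 0.857-fold. The keratin genes KRT8 and KRT18 and the filament gene VIM were abundant in both libraries, the T cell gene CD3E and the leukocyte gene PTPRC were at 0 counts in both, and so were the alveolar gene SFTPC and the epithelial cadherin gene CDH1. The mesenchymal gene CDH2 had 1221 counts in the knockdown library, against 996 in the control library, and FN1 had 1032 against 1044. The remaining markers looked at were low but not at 0. The epithelial gene EPCAM had 25 counts in the knockdown library, against 19 in the control library, and KRT7 had 56 against 76. In the same order, the alveolar gene NKX2-1 had 5 against 17 and the blood gene CD14 had 3 against 4. The endothelial genes PECAM1 and VWF had 50 against 43 and 36 against 30, and the fibroblast gene COL1A1 had 63 against 50. In bulk RNA, fewer cells of a type and less RNA per cell cannot be told apart.

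The clearest differences lay in the RAS genes, which moved in opposite directions. NRAS was higher in the knockdown library and HRAS lower. MAP2K1, MAP2K2 and ARAF differed by less than 1.2-fold, as did BRAF and MAPK3, which were slightly higher. All 7 genes passed the filter of 1 CPM on average over both libraries (1 CPM is 1 count in 1000000), with between 723 and 7257 counts in a library. At least 1.2-fold higher was 1 of the 7, against 11.7% of all 14559 genes tested, and at least 1.2-fold lower was 1 of the 7, against 12.9% of all genes tested. These shares lie near the background. No member reached 1.5-fold, which 2.16% of the tested genes did upwards and 2.29% downwards, or 2-fold, which 0.33% did upwards and 0.316% downwards. The median log2 ratio of the members was −0.02, beside −0.01 over all genes tested.

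By TPM level, the members spanned a wide range, and on that scale MAP2K2 was the highest and BRAF the lowest in both libraries. TPM, the authors' values, are counts divided by gene length and scaled to a sum of 1000000 in each library, so that genes can be compared. In the knockdown library the order was MAP2K2, NRAS, MAP2K1, MAPK3, HRAS, ARAF and BRAF, and in the control library MAP2K2, MAP2K1, HRAS, NRAS, MAPK3, ARAF and BRAF. In the knockdown library MAPK3 stood at 1.04 times HRAS (0.951 to 1.14), an interval that holds 1, so the order of these neighbours is not settled by counting. NRAS stood at 1.06 times MAP2K1 (1.02 to 1.11) in the same library. In the control library the interval of the ratio excluded 1 for each pair of neighbours, the closest being HRAS at 1.12 times NRAS (1.04 to 1.21). By these TPM values, which rest on the listed lengths, NRAS stood in rank 2 in the knockdown library, against rank 4 in the control library. HRAS stood in rank 5 in the knockdown library, against rank 3 in the control library.

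The level of BRAF rests on a listed length of 16648 bases, far above the 9578 bases of its longest protein-coding transcript in GENCODE release 29. Rescaled to that transcript, BRAF would stand at 10.2 in the knockdown library and 8.49 in the control library. ARAF, rescaled in the same way, would stand at 35.3 in the knockdown library and 35.2 in the control library, above BRAF at that length. The BRAF transcript with the longest coding sequence has 2549 bases. A length that short would raise BRAF further, and its place among the members is therefore not settled. Other orders depend on the lengths too. Rescaled so in the knockdown library, MAP2K1 would stand at 110, above NRAS at 101, and HRAS at 69.6, above MAPK3 at 54.7. NRAS would still stand above HRAS in the knockdown library, and below it in the control library, at 72.6 against 85.6. The comparison between libraries does not depend on the length, which is the same in both.

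**Figure D1:**
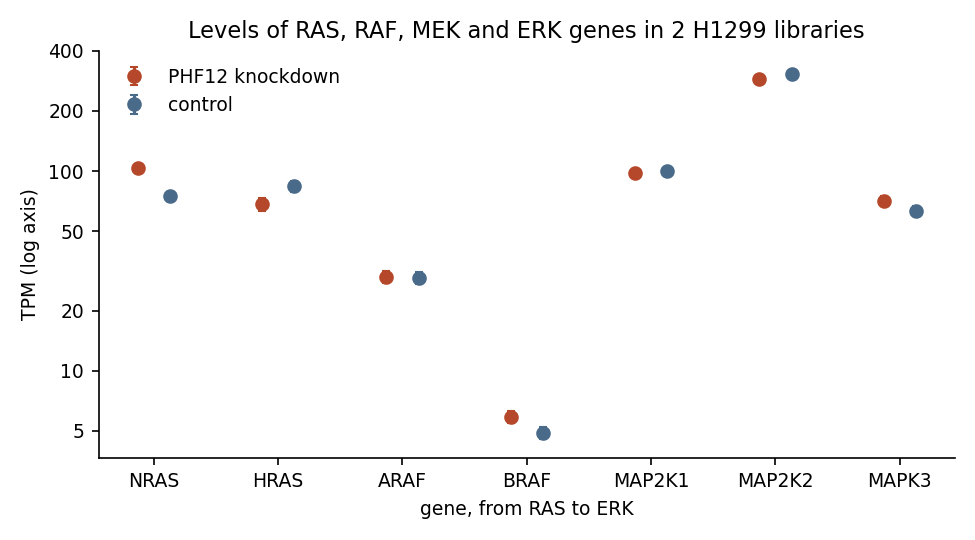
Authors' TPM (log axis) of the 7 genes in the PHF12 knockdown library and the control library; each point is 1 library and bars are 95% counting intervals. NRAS lies at 104 in the knockdown library and 74.7 in the control library, and HRAS at 68.1 in the knockdown library and 83.8 in the control library, so their order is exchanged.

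NRAS, on the minus strand of chromosome 1 from 114704469 to 114716771 in hg38, encodes the RAS protein that is mutated in H1299. It had 4153 counts in the knockdown library, against 2872 counts in the control library. Its TPM was 104 in the knockdown library, against 74.7 in the control library. The knockdown library was thus the higher one on both scales. The log2 ratio was 0.45 (0.38 to 0.52), a fold of 1.36, and 9.11% of the tested genes had a larger absolute log2 ratio. No annotated exon of another gene in GENCODE release 29 covered an exon of NRAS.

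HRAS, on the minus strand of chromosome 11 from 532242 to 535576, encodes a RAS protein with a closely related catalytic domain but a different membrane-targeting tail. It had 795 counts in the knockdown library, against 939 counts in the control library. Its TPM was 68.1 in the knockdown library, against 83.8 in the control library. The knockdown library was the lower one, opposite to NRAS. The log2 ratio was −0.32 (−0.46 to −0.19), a fold of 0.798, and 17.4% of the tested genes had a larger absolute log2 ratio.

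The whole of HRAS lies within the span of LRRC56, a leucine-rich repeat gene on the other strand. LRRC56 had 191 counts in the knockdown library, against 227 counts in the control library, and a log2 ratio of −0.33 (−0.62 to −0.05). HRAS and LRRC56 were thus both lower, with close log2 ratios, though the interval of LRRC56 is wide. LOC101059906, also on the other strand, shares 22 bases of span with HRAS. It had 20 counts in the knockdown library, against 18 counts in the control library, and a log2 ratio of 0.07 (−0.93 to 1.07). The sources used here do not give the strand setting of the counting, and no exon base of HRAS was shared with an exon of LRRC56 in GENCODE release 29. The part of LRRC56 reads in the HRAS counts was not tested.

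The ratio of NRAS to HRAS counts needs no scaling between libraries. It was 5.22 in the knockdown library, against 3.06 in the control library, a fold of 1.71 (1.53 to 1.90). On the TPM scale NRAS stood at 1.52 times HRAS in the knockdown library, against 0.891 times in the control library. The more abundant of the pair per length was therefore NRAS in the knockdown library and HRAS in the control library.

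The coding sequences of HRAS and NRAS are each 567 bases long in GENCODE release 29 and identical at 73.0% of bases and 85.2% of residues. A stretch of both is shown because HRAS held there a word of 7 bases, ACATCGA, that was over-represented in the 3′ UTRs of genes lower in the knockdown library, as chosen on these same libraries. The capitals mark the word in HRAS and the bases at the same coding position in NRAS, which is read from its first coding base like HRAS. The HRAS stretch lies at chr11:533459-533485 and the NRAS stretch at chr1:114709575-114709601, both on the minus strand of hg38 and written 5′ to 3′.
HRAS: ccctACATCGAgacctcggccaagacc
NRAS: ccatTCATTGAaacctcagccaagacc
The stretches differ at 5 of 27 bases, 2 of them within the word, and 8 of 9 codons encode the same amino acid. They hold the conserved SAK residues near the guanine pocket of RAS proteins.

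Of the 4 words searched for, on the transcript strand alone, ACATCGA and CATCGAA were those of lower genes, and they share 6 bases when overlapped by 1 position. TCGGAGA and ATCGGAG were those of higher genes. No protein-coding transcript of the 7 members in the GENCODE basic set held one of the 4 words in its 3′ UTR. In the coding sequence, HRAS held ACATCGA and BRAF held CATCGAA, and the other 5 members held none of the 4. The BRAF site is shown because BRAF stood on the other side of 0 from HRAS. It lies at chr7:140794368-140794394 on the minus strand, with the word in capitals.
BRAF: gatCATCGAAatcaatttgggcaacga
Among 12365 protein-coding genes tested with a transcript, 8.87% held ACATCGA in the coding sequence, with a median log2 ratio of −0.11, and 5.88% held CATCGAA, with a median of −0.07. The median over all 12365 was −0.01. Coding sequences with ACATCGA were longer, with a median of 2148 bases against 1443 bases over all. A match describes these letters alone, and its part in the HRAS and BRAF values was not tested.

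**Figure D2:**
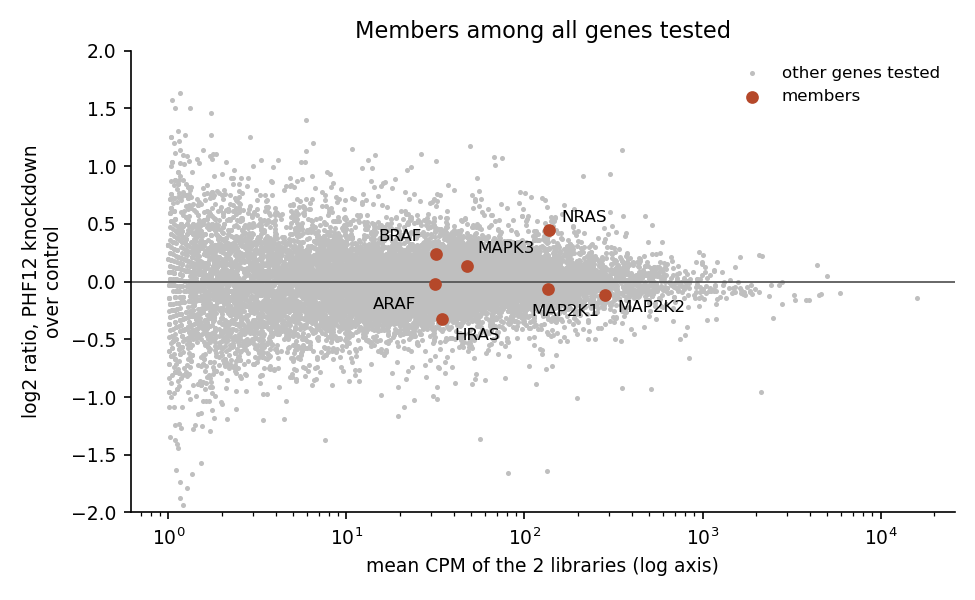
Log2 ratio of the PHF12 knockdown library over the control library against mean CPM of the 2 libraries (log axis) for all 14559 genes tested, 1 point a gene, with the 7 members filled in colour. NRAS at 0.45 lies toward the upper side of genes of its abundance, HRAS at −0.32 lies at the lower side, and the other 5 lie within 1.2-fold.

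The RAF genes stood apart from each other by less than the RAS genes did. ARAF, on the plus strand of chromosome X from 47561205 to 47571908, encodes the RAF kinase with the weakest activity towards MEK. It had 819 counts in the knockdown library, against 783 counts in the control library, and a TPM of 29.3 in the knockdown library, against 29.2 in the control library. Its log2 ratio was −0.02 (−0.16 to 0.12), so no difference was detectable at this depth. SYN1, a synapsin gene on the other strand, shares 8 bases with its end and had 50 counts in the knockdown library, against 67 counts in the control library.

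BRAF, on the minus strand of chromosome 7 from 140713328 to 140924929, encodes the RAF kinase with the strongest activity towards MEK. It had 907 counts in the knockdown library, against 723 counts in the control library. Its TPM was 5.88 in the knockdown library, against 4.88 in the control library. The knockdown library was the higher one, with a log2 ratio of 0.24 (0.10 to 0.39), a fold of 1.18. A larger absolute log2 ratio was found for 27.6% of the tested genes. With the deposited TPM in place of scaled counts the ratio was 1.204 and just past 1.2-fold. In GENCODE release 29, 5.29% of the exon bases annotated to BRAF lie in exons of NDUFB2 on the other strand. The positions listed with the counts show no such overlap. By them the gene found within 2000 bases of BRAF was LOC105375536, which did not overlap it.

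The ratio of ARAF to BRAF counts was 0.903 in the knockdown library, against 1.08 in the control library, a fold of 0.834 (0.724 to 0.960). Per length ARAF stood at 4.99 times BRAF in the knockdown library, against 5.99 times in the control library. By the listed lengths ARAF was the more abundant RAF transcript of the pair in both libraries. That order rests on the length taken for BRAF and is not settled here.

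The MEK genes were the nearest to each other. MAP2K1, on the plus strand of chromosome 15 from 66386912 to 66491544, encodes MEK1 and had 3489 counts in the knockdown library, against 3436 counts in the control library. Its TPM was 97.4 in the knockdown library, against 99.95 in the control library. The log2 ratio was −0.06 (−0.13 to 0.01), within counting error. At its end MAP2K1 overlaps SNAPC5 by 1797 bases on the other strand, and at its start TIPIN by 362 bases. SNAPC5 had a log2 ratio of 0.12 (−0.02 to 0.26) and TIPIN one of 0.07 (−0.09 to 0.24), both intervals holding 0. In GENCODE release 29, 11.5% of the exon bases of MAP2K1 lie in exons of genes on the other strand, the largest such share of the 7.

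MAP2K2, on the minus strand of chromosome 19 from 4090321 to 4124184, encodes MEK2. It had 7103 counts in the knockdown library, against 7257 counts in the control library. Its TPM was 287 in the knockdown library, against 306 in the control library, above 96.2% and 96.5% of the genes tested. The log2 ratio of −0.12 (−0.16 to −0.07) excluded 0 by counting error, but 56.6% of the tested genes had a larger absolute log2 ratio. A transcribed pseudogene described as one of MAP2K2 (LOC407835) had 13 counts in the knockdown library, against 9 counts in the control library.

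Per length MAP2K1 stood at 0.339 times MAP2K2 in the knockdown library, against 0.327 times in the control library. The fold between these ratios was 1.04 (0.979 to 1.10), an interval that holds 1. Of the 3 paralog pairs compared, the RAS and RAF pairs had an interval that excluded 1, and the MEK pair did not.

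MAPK3, on the minus strand of chromosome 16 from 30114105 to 30123309, encodes ERK1, a kinase that phosphorylates transcription factors and other kinases. It had 1301 counts in the knockdown library, against 1115 counts in the control library. Its TPM was 70.8 in the knockdown library, against 63.2 in the control library. The knockdown library was the higher one, with a log2 ratio of 0.14 (0.02 to 0.25), and 49.9% of the tested genes had a larger absolute log2 ratio. GDPD3, the nearest gene on the same strand, begins 567 bases beyond its end and had 24 counts in the knockdown library, against 20 counts in the control library.

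By counting error alone, the intervals of NRAS, BRAF and MAPK3 lay above 0, 3 of the 7, against 20.3% of all genes tested. Those of HRAS and MAP2K2 lay below 0, 2 of the 7, against 20.9% of all genes tested. Counting intervals are narrow for genes with this many counts and leave out the spread between cultures, which 1 library per group cannot give.

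**Figure D3:**
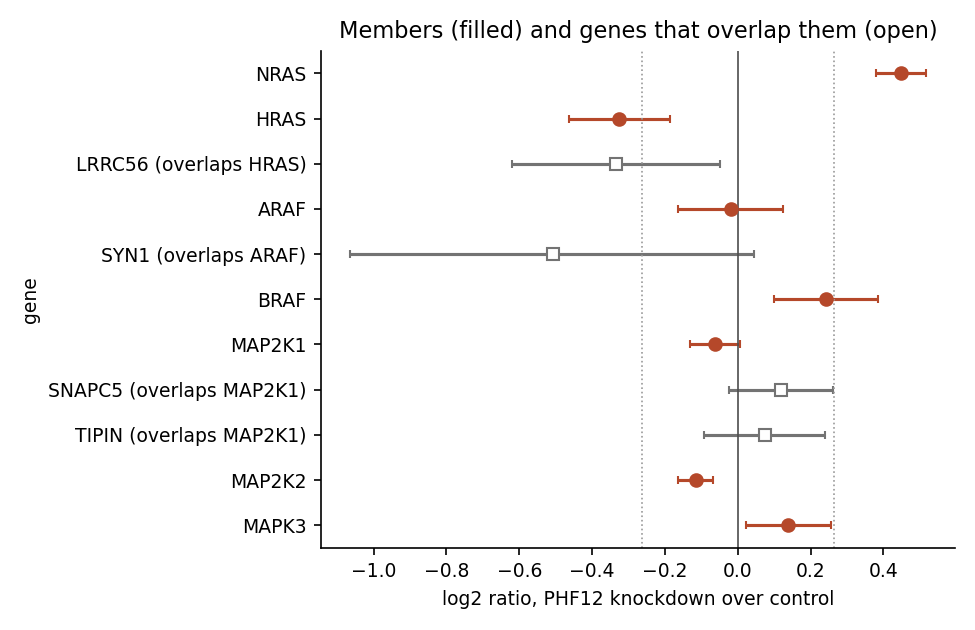
Log2 ratio of the PHF12 knockdown library over the control library for each member (filled circles) and for tested genes that overlap it on the other strand (open squares); bars are 95% counting intervals and dotted lines mark 1.2-fold. NRAS at 0.45 stands furthest above 0, and HRAS at −0.32 and LRRC56 at −0.33 lie close together, LRRC56 with a wide interval.

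GC content moved with the log2 ratio over all genes, and the members differ widely in it. Reference transcripts of NRAS and BRAF had the lowest GC content of the 7, at 38.4% and 45.7%. Those of HRAS and MAP2K2 had the highest, at 65.2% and 65.5%. Over the genes with a transcript, divided by GC content into 5 classes of equal size, the median log2 ratio was 0.03 in the lowest class and −0.09 in the highest. With a trend on GC content and transcript length removed, NRAS stood at 0.40, BRAF at 0.22 and MAPK3 at 0.22. With the same trend removed HRAS stood at −0.22, no longer past 1.2-fold, and MAP2K2 at −0.01. This setting was chosen after the values were seen. The BRAF transcript used here has 2549 bases, against a listed length of 16648. Its GC content and trend-removed value may therefore not describe the counted gene.

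**Figure D4:**
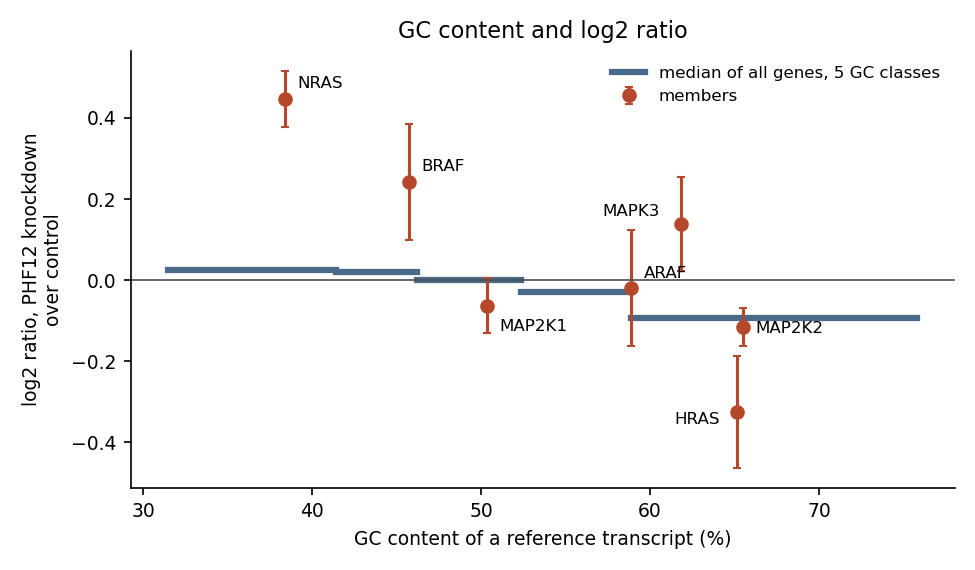
Log2 ratio of the PHF12 knockdown library over the control library against GC content of a reference transcript in percent; circles are the 7 members with 95% counting intervals, and horizontal lines are medians of all genes with a transcript, in 5 classes of GC content of equal size. The medians run between 0.03 in the lowest class and −0.09 in the highest. NRAS, with the lowest GC content of the 7, lies at 0.45, and HRAS, near the highest, at −0.32.

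The genes around the members were described by 13 lists of pathway genes, with 135 different genes tested. At least 1.2-fold higher were 8 of these genes (5.93%, against 11.7% of all tested), and at least 1.2-fold lower were 14 (10.4%, against 12.9% of all tested). The split depends on the scaling, with 11 higher and 12 lower by DESeq2 size factors and 12 higher and 12 lower with the deposited TPM. The median log2 ratio over the 135 was −0.01, as over all genes tested. Overlaps with other genes were examined for the members alone.

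Upstream of RAS, of 9 receptor adaptor genes tested 0 were higher and 1 lower by at least 1.2-fold, with a median of 0.05. SHC1, which links receptors to GRB2, was the highest at 0.21, and its relative SHC2 the lowest at −0.49 (−0.93 to −0.06) on 80 counts in the knockdown library, against 106 in the control library. Of 6 exchange factor genes, which load RAS with GTP, 0 were higher and 1 lower, with a median of −0.06. RASGRP2 was the highest at 0.09, and RASGRP1 the lowest at −0.29 (−0.80 to 0.21) on few counts. Of 8 GTPase-activating protein genes, which switch RAS off, 1 was higher and 1 lower, with a median of 0.08. The lower one was DAB2IP, at −0.31 (−0.42 to −0.20).

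Genes for the lipid modification and trafficking of RAS had a median of −0.01, with 0 of 13 higher and 3 lower by at least 1.2-fold. The 3 were ABHD17A, ABHD17C and RCE1. ABHD17 enzymes remove palmitate from NRAS, and RCE1 is the protease that trims RAS after prenylation. ABHD17C was the lowest at −0.95 (−1.48 to −0.43), with 49 counts in the knockdown library, against 89 counts in the control library. ABHD17A stood at −0.49 (−0.58 to −0.41), with 1963 counts in the knockdown library, against 2602 counts in the control library. The third gene of that family, ABHD17B, stood at −0.06 (−0.23 to 0.12), an interval that holds 0. The intervals of LYPLA1 at −0.01 and LYPLA2 at −0.04, which encode other depalmitoylases, held 0 too. GOLGA7, a partner of the palmitoyltransferase ZDHHC9, was the highest at 0.22.

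Among 11 other GTPase genes of the RAS subfamily 1 was higher and 0 lower, with a median of −0.01. RIT1, whose product also acts on RAF, was the highest at 0.53 (0.37 to 0.70), with 777 counts in the knockdown library, against 507 counts in the control library. RIT1 was thus further from 0 than NRAS, and RAP2B was the lowest of the list at −0.25. Of 11 genes for other RAS effectors 1 was higher and 2 lower, with a median of −0.04. RIN2 stood at 0.46 (0.10 to 0.83) on 155 counts in the knockdown library, against 106 in the control library. RGL3, an exchange factor for RAL, stood at −0.91 (−1.60 to −0.25) on 31 counts in the knockdown library, against 55 in the control library.

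Around RAF, MEK and ERK, 19 scaffold and regulator genes had a median of −0.03, with 1 higher and 0 lower. PPP1CB, a phosphatase subunit of the SHOC2 complex that activates RAF, was the highest at 0.35 (0.28 to 0.42), and the RAF and MEK scaffold gene KSR1 the lowest at −0.21. Of 10 chaperone and YWHA genes, whose products bind RAF, 0 were higher and 1 lower, with a median of 0.05. YWHAE was the highest at 0.19 and SFN the lowest at −0.54 (−1.31 to 0.22) on few counts. Of 12 genes for kinases and ETS factors phosphorylated by ERK 0 were higher and 1 lower, with a median of −0.01. RPS6KA3 was the highest at 0.26 and RPS6KA6 the lowest at −0.48 (−1.13 to 0.16). Of 8 ERK phosphatase genes 1 was higher and 1 lower, with a median of −0.05. PTPRR was the highest at 0.28 (0.06 to 0.50), and DUSP2 the lowest at −0.28 (−0.74 to 0.18).

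In the parallel MAP kinase cascades the medians were likewise near 0. Of 16 MAP3K genes outside the RAF family 1 was higher and 1 lower, with a median of 0.00, MAP3K2 at 0.28 and MAP3K21 at −0.44 (−0.72 to −0.16). Of 4 other MAP2K genes 0 were higher and 1 lower, with a median of 0.01. MAP2K7, an activator of JNK kinases, was the highest at 0.23, and MAP2K3, an activator of p38 kinases, the lowest at −0.27 (−0.33 to −0.22). Of 9 other MAPK genes 2 were higher and 1 lower, with a median of −0.03. MAPK6, which encodes an atypical relative of ERK, was the furthest above 0 of all 135 genes, at 0.66 (0.60 to 0.73), with 5375 counts in the knockdown library, against 3197 counts in the control library. MAPK10, a JNK gene, was the lowest of its list at −0.59 (−1.11 to −0.08) on 57 counts in the knockdown library, against 81 in the control library.

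**Figure D5:**
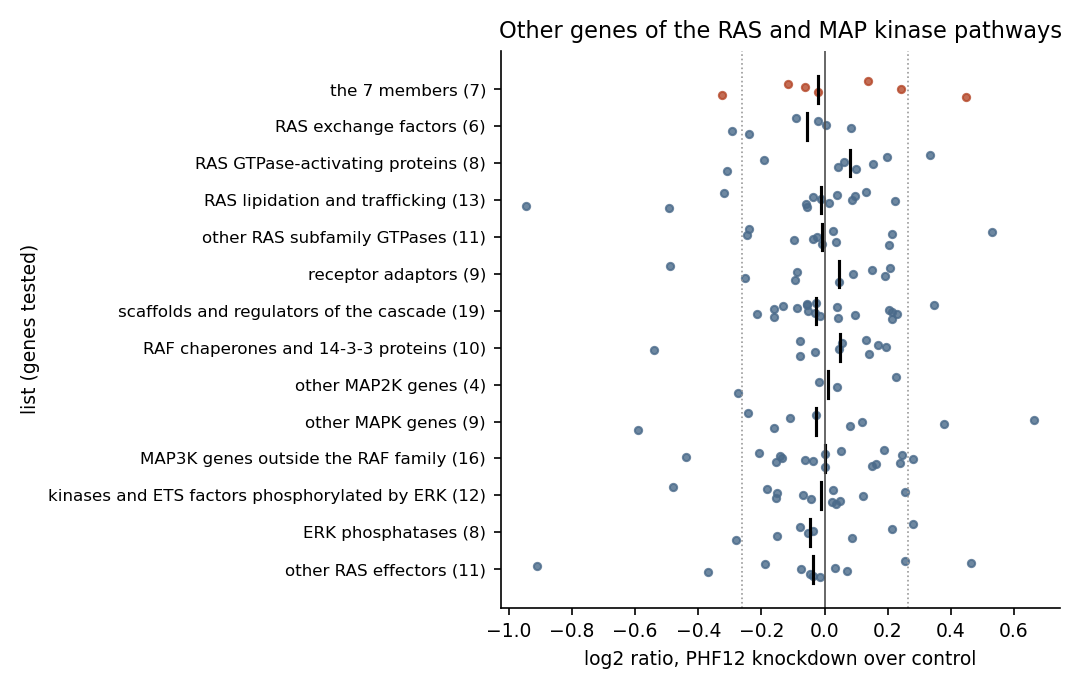
Log2 ratio of the PHF12 knockdown library over the control library for the 7 members (top) and for each tested gene of 13 pathway lists, 1 point a gene; short black lines are medians and dotted lines mark 1.2-fold. The list medians lie between −0.06 and 0.08, and NRAS at 0.45 is exceeded by RIN2, RIT1 and MAPK6.

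Over 2 libraries the likeness of 2 genes comes down to the distance between their log2 ratios. By that measure the pathway gene nearest to NRAS was RIN2, at 0.46 beside 0.45. Nearest to HRAS was RCE1, at −0.32 like HRAS itself, with 433 counts in the knockdown library, against 509 counts in the control library. Nearest to BRAF was MAP3K12, at 0.24 like BRAF. For the others the nearest were SOS1 for ARAF, MAP3K15 for MAP2K1, MAPK7 for MAP2K2 and HSP90AA1 for MAPK3.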

How the data were processed

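HISAT2, HTSeq and the build hg38 are named in the submitters' processing notes. The sources used here do not give versions or the strand setting. Per the labels' protocols, oligo(dT)-selected mRNA was prepared with NEBNext Ultra reagents. The deposited table holds, per the file headers, raw counts and TPM for each gene. Counts over listed length, scaled to 1000000, gave the authors' TPM values.

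From the deposited counts, edgeR 4.0.16 under R 4.3.3 gave TMM factors of 1.00 for the knockdown and 0.997 for the control library. Genes averaging at least 1 CPM were tested, 14559 in all. Folds carry no pseudocount. Intervals of folds are exact conditional Clopper-Pearson 95% intervals for 2 Poisson counts, those of within-pair ratios exact conditional intervals of a table of counts, and those of TPM exact Poisson intervals. edgeR's quasi-likelihood test could not be fitted with 1 library per group. The rule of size was 1.2-fold. Intervals were tried on simulated Poisson counts, the model they assume. Such counts hold no spread between cultures, so this says nothing about that spread. Words and GC content were read from the GENCODE release 29 transcript with the longest coding sequence, found for 97.6% of the protein-coding genes tested. Intervals were computed with scipy 1.17.1 under Python 3.11.15.

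The 7 members, the pathway lists and the rule of size were chosen with earlier results of these data known. Genes named are the 7 members, PHF12, HDAC1, EGFR and AKT1, genes next to or across a member, the highest and lowest of each list and the list gene nearest to each member. A few genes so selected are not reported here. ABHD17A, ABHD17B, LYPLA1 and LYPLA2 were named from their lists after their values were seen. So were KRT8, KRT18, VIM, CDH2, FN1, CD3E, PTPRC, SFTPC, CDH1, EPCAM, KRT7, NKX2-1, CD14, PECAM1, VWF and COL1A1. Alternatives were other scalings (DESeq2 1.42.0 size factors among them), the deposited TPM, pseudocounts, filters and folds.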

Additional observations from a re-analysis of the deposited data

How the results depend on the processing

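Under the scalings by total counts, by DESeq2 size factors, by TMM over the genes tested or over protein-coding genes, with the deposited TPM, with pseudocounts of 0.5 and 1 CPM and with no filter or a minimum of 5 CPM, the log2 ratio was 0.44 to 0.47 for NRAS, −0.32 to −0.30 for HRAS and 0.24 to 0.27 for BRAF. It was 0.14 to 0.16 for MAPK3, −0.06 to −0.04 for MAP2K1, −0.12 to −0.09 for MAP2K2 and −0.02 to 0.01 for ARAF. With the deposited TPM, 2 members were at least 1.2-fold higher, with BRAF added, against 13.5% of all genes tested. At least 1.5-fold or 2-fold, 0 members were higher and 0 lower. With the GC content and length trend removed, 0 members were at least 1.2-fold lower, against 11.5% of the 12365 genes with a transcript. The log2 ratio of MAP2K2 was then −0.0055. The size of this trend over all genes is given above. With a minimum of 5 CPM, 6 pathway genes were at least 1.2-fold lower, fewer genes being tested, beside 9.58% of all 11775 genes at that minimum. At the filter of 1 CPM, 1 of the 135 pathway genes was at least 1.5-fold higher and 3 lower. Over all genes tested the shares were 2.16% and 2.29%. Signs changed for 12 recomputed values whose reported value lay within 0.05 of 0, 2 of them for ARAF and 10 for medians of 4 pathway lists. No paired analysis was possible because each group has 1 library. Depth limits what can be said of pathway genes with under 100 counts.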

Other observations

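Genes with ACATCGA in the coding sequence stood lower in each of 5 equal classes of GC content, HRAS lying in the highest. In the lowest class, 132 such genes had a median log2 ratio of −0.02, against 0.03 for genes with neither word of lower genes in the coding sequence or 3′ UTR. In the middle class, 224 such genes had a median of −0.10, against 0.02. In the highest class, 288 such genes had a median of −0.18, against −0.08. Coding sequences with TCGGAGA or ATCGGAG, in 1339 genes with neither word in the 3′ UTR, went with a median of 0.04. These are medians over genes of the same 2 libraries, on which the words were also chosen, so they are no independent support. Of all 1097 genes with ACATCGA in the coding sequence, 1078 held no word of lower genes in the 3′ UTR. Coding length was not matched, with a median of 2148 bases, against 1371 bases for genes with neither word of lower genes. No cause was tested.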
